A study of Mus musculus with 35 samples.

Results

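Foxn1, Pax1, Pax9, Hoxa3, Eya1 and Epcam are genes by which a thymic epithelial cell is recognised, and their signals were read here in medullary thymic epithelial cells (mTECs) sorted for 6 antigens. Every probe annotated to these 6 symbols was taken, which gave 12 of the 46089 probes on the array. Foxn1, Pax9 and Epcam had 1 probe each, Pax1 had 2, Hoxa3 had 3 and Eya1 had 4. A probe was kept for testing when it was detected, at a detection p under 0.05, on at least 2 arrays of 1 group. Of the 12 probes 9 were kept, of 34083 kept in all, and they covered 5 of the 6 genes because no Hoxa3 probe was kept. The name "transcription factors" does not cover the whole set, since Epcam encodes a surface adhesion molecule and Eya1 a cofactor without a DNA-binding domain of its own.

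The thymus grows from the endoderm of the third pharyngeal pouch. Hoxa3, Pax1, Pax9 and Eya1 act there before Foxn1 is switched on. Foxn1, a forkhead factor whose loss causes the athymic nude mouse, then drives thymic epithelial precursors to differentiate and to express genes that attract and instruct developing T cells. Epcam is carried on the surface of most epithelia and is widely used to gate thymic epithelium.

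RNA came from mouse mTECs isolated by flow sorting as positive or negative for Pdpn, Gp2, Cea1 or Tspan8 with antibodies, or for Gad1 or Ins2 with reporter mice. Positive cells were measured on 3 arrays in the Pdpn, Gad1, Cea1, Ins2 and Tspan8 sorts and on 2 in the Gp2 sort, and negative cells on 3 arrays in every sort except Ins2, which had 2 usable ones. Arrays of 1 group are described as biological replicates of each other. The labels name no strain, age, treatment, reporter construct, gate or number of pooled mice. Levels are given as log2 signal after background correction and quantile normalization, with an offset of 16 added, so that a probe without signal lies near 4. Differences are positive minus negative cells on that scale, and the offset makes them smaller than the true change for dim probes. Levels of different probes cannot be set against each other. Groups of different sorts also differ in the antibody or the reporter mice used. Their order by level is therefore a description and was not tested.

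Medullary thymic epithelial markers were detected on all 34 arrays used in 10 of 10 cases. So were 5 of 11 thymocyte markers, 5 of 9 cortical epithelial markers and 3 of 9 fibroblast and pericyte markers. Detection alone therefore does not establish the labelled cell type. Median raw intensity was 85.6 to 126.6 per array, 47.1% to 60.8% of probes were detected, and replicate arrays correlated at 0.971 to 0.992 (Pearson, across probes). The Gp2-positive arrays stood apart, because 11 of 11 measured thymocyte markers were higher there. The summed linear signal of those markers was 16814 to 22067 on Gp2-positive arrays, against 1025 to 3805 on Gp2-negative arrays, where only Rag2 was detected on no array. Of the 10 medullary markers, 7 were lower and 0 higher in Gp2-positive cells (median -1.06). They were 6 lower and 0 higher in Cea1, 6 and 1 in Tspan8, 5 and 3 in Pdpn, 3 and 2 in Ins2, and 0 and 0 in Gad1. Of all kept probes, 10.7% (Cea1) to 16.7% (Gp2) were higher and 12.6% (Cea1) to 18.4% (Tspan8) lower in these sorts, and nothing is read from the Ins2 and Gad1 counts.

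Promoters are shown for Foxn1, Pax1 and Pax9, since the signals of all 3 genes fell in Ins2-positive cells. Eya1 fell there too, but its promoter was not in the sources used here. Without Ins2-negative replicate 1 the falls of Foxn1 and Pax9 did not pass the test given below. Each promoter runs from 250 bases before to 50 bases after the gene start, 5′ to 3′ on the gene's strand, in RefSeq sequence of build GRCm38.p6. Capitals mark GACGC, the core of the motif reported for Foxn1, searched on both strands (GACGC or GCGTC). The Foxn1 promoter lies at chr11:78386559-78386858 on the minus strand, that of Pax1 at chr2:147364744-147365043 on the plus strand and that of Pax9 at chr12:56695221-56695520 on the plus strand.
Foxn1: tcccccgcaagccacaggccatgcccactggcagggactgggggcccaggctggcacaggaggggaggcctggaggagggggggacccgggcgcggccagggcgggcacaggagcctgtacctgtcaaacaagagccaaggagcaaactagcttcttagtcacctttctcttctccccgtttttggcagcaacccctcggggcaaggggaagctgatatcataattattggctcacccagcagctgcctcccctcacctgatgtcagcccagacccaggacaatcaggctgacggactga
Pax1: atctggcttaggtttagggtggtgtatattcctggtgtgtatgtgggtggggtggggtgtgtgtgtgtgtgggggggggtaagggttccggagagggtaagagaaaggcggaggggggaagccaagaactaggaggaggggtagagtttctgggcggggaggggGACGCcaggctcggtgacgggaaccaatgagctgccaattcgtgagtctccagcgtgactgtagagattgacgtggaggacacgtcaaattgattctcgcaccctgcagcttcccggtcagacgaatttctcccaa
Pax9: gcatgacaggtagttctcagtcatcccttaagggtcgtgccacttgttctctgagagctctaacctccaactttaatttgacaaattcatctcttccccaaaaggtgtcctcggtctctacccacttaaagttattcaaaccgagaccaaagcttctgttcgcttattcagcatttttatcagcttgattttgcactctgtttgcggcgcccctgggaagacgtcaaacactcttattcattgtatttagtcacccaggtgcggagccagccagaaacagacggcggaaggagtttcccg
The Pax1 window held the motif 1 time, beginning 86 bases before the gene start, and the windows of Foxn1, Pax9 and Epcam held it 0 times. The Hoxa3 window held it 2 times, both on the other strand. Among all 32851 promoters of 300 bases in the table, 27.2% held the motif, so a match in 2 of 5 windows is a description of these letters and shows no site. GC content was 62.7% for Foxn1, 57.3% for Pax1, 47% for Pax9, 64% for Hoxa3 and 57% for Epcam, against a median of 52.7% over all promoters.

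Calls on the brightest kept probe of the 5 measurable genes differed from sort to sort. Each difference was tested with limma, and p was adjusted (Benjamini-Hochberg) across the 34083 kept probes of the sort, with a threshold of 0.05. In the Pdpn sort 2 of 5 genes rose and 1 fell, where 15.3% of all probes rose and 15.9% fell (31.1% in either direction). In the Gp2 sort 1 gene rose and 0 fell, beside 16.7% and 16.5% of all probes (33.2% in either direction). In the Gad1 sort 0 rose and 1 fell, beside 14.7% and 15.9% (30.6%). The Cea1 sort had 1 gene higher and 1 lower, beside 10.7% and 12.6% (23.3% in either direction). In the Ins2 sort 0 rose and 4 fell, beside 13.3% and 14.6% of all probes (27.9%). The Tspan8 sort had 2 genes higher and 0 lower, beside 16.5% and 18.4% (34.8%). Only the Ins2 sort moved more than 3 of the 5 genes, all of them down. That count of 4 fell to 2 without Ins2-negative replicate 1, which ended the calls of Foxn1 and Pax9, and to 2 with the sort fitted alone, which ended those of Foxn1 and Eya1. Under median scaling 8614 of all probes were lower in this sort, against 4991. With 5 genes a count of 1 or 2 is close to what those shares give, and nothing is read from it. Positive and negative arrays did not overlap for 46.9% of all kept probes in the Pdpn sort, 51% in Gp2, 37.9% in Gad1, 32.9% in Cea1, 45.2% in Ins2 and 49.7% in Tspan8.

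**Figure D1:**
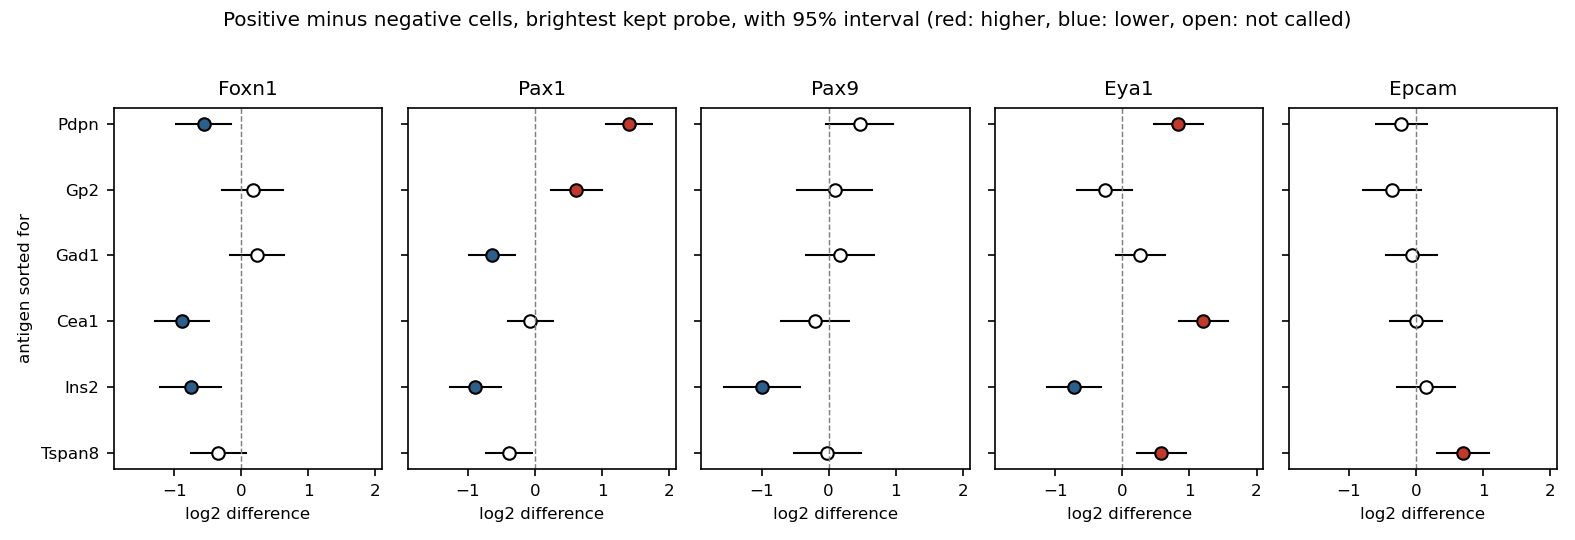
Positive minus negative log2 difference (x axis) of the brightest kept probe of Foxn1, Pax1, Pax9, Eya1 and Epcam in each of the 6 sorts (y axis), with 95% intervals. Filled red points were called higher, filled blue points lower and open points were not called. In the Ins2 sort 4 of the 5 points lie to the left of 0 and are filled blue.

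Foxn1 signal was lower in positive than in negative cells of the Cea1, Ins2 and Pdpn sorts and was not called in the other sorts. Its probe was detected on 34 of 34 arrays. In the Cea1 sort it read 5.49, 5.62 and 5.59 in positive cells, against 6.28, 6.46 and 6.60 in negative cells. Every positive array lay below every negative one, and the signal was 1.84-fold lower (95% interval 1.39 to 2.44; adjusted p = 0.00100, limma). The call held in each of the alternatives tried, with a difference of -0.97 to -0.81 when single arrays were left out. Tuft cell markers (7 of 8) and endothelial markers (4 of 6), described with Eya1 below, rose in the same cells, beside 10.7% of all probes. The part of these markers in the Foxn1 result was not tested. Whether such a change reflects fewer cells with Foxn1 or less Foxn1 RNA per cell cannot be told apart in bulk RNA.

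In the Ins2 sort Foxn1 read 5.06, 4.96 and 5.13 in positive cells, against 6.16 and 5.45 in negative cells. The groups did not overlap, but the negative arrays were far apart from each other. The difference was -0.76 (SE 0.223; adjusted p = 0.00913, limma), a 1.69-fold lower signal. It rests on Ins2-negative replicate 1, without which it was -0.40 with an adjusted p of 0.343. Fitted on the Ins2 sort alone the call was lost as well (adjusted p = 0.176). The authors' deposited normalized table also holds Ins2-negative replicate 2, whose unnormalized intensity was not usable. In log2 of those values Foxn1 read 6.78, 6.75 and 6.78 in positive cells, against 7.17, 7.08 and 6.89 in negative cells, and the difference over all 35 arrays was called (-0.28; adjusted p = 0.00670, limma). How those values were normalized is not given in the sources used here.

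In the Pdpn sort Foxn1 read 5.89, 5.77 and 5.60 in positive cells, against 6.33, 6.44 and 6.18 in negative cells. The groups did not overlap, and the signal was 1.48-fold lower (95% interval 1.11 to 1.96; adjusted p = 0.0285, limma). The call was lost without Pdpn-positive replicate 2 (-0.57; adjusted p = 0.0630), without Pdpn-positive replicate 3 (-0.49; 0.119), without Pdpn-negative replicate 1 (-0.56; 0.0710) and without Pdpn-negative replicate 2 (-0.50; 0.108). It was also lost under median scaling (-0.62; adjusted p = 0.0566). Its direction held throughout. Markers of fibroblasts and pericytes, given with Pax1 below, were higher in the same cells, and their part in the Foxn1 result was not tested.

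In the other sorts the Foxn1 groups overlapped or the test was not passed. Tspan8-positive cells read 5.43, 5.65 and 5.29, against 5.79, 5.64 and 5.96 in Tspan8-negative cells (difference -0.34, SE 0.200; adjusted p = 0.209, limma). Gad1-positive cells read 5.75, 5.91 and 5.88, against 5.27, 5.82 and 5.75 in Gad1-negative cells (0.24, SE 0.200; adjusted p = 0.426, limma). Gp2-positive cells read 6.85 and 6.83, against 6.58, 6.42 and 7.03 in Gp2-negative cells (0.17, SE 0.223; adjusted p = 0.636, limma). Under median scaling the Gp2 difference had the opposite sign (-0.39; adjusted p = 0.267), so it has no settled direction.

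Ordered by group mean, Foxn1 was highest in Gp2-positive cells (6.84 ± 0.02, SD, n = 2) and lowest in Ins2-positive cells (5.05 ± 0.09, SD, n = 3). Negative cells alone ranged from 5.61 in the Gad1 sort to 6.67 in the Gp2 sort. Such an order may thus carry the sort, its antibody or its mice as well as the cells, and these cannot be told apart. The 4 highest groups were Gp2-positive, Gp2-negative (6.67 ± 0.32), Cea1-negative (6.45 ± 0.16) and Pdpn-negative cells (6.32 ± 0.13), each overlapping the next. All 3 Pdpn-negative arrays were above those of the next group, Gad1-positive cells (5.85 ± 0.09). From there to Tspan8-positive cells (5.46 ± 0.18) each group overlapped its neighbour in the order. Ins2-positive arrays lay below all of these.

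**Figure D2:**
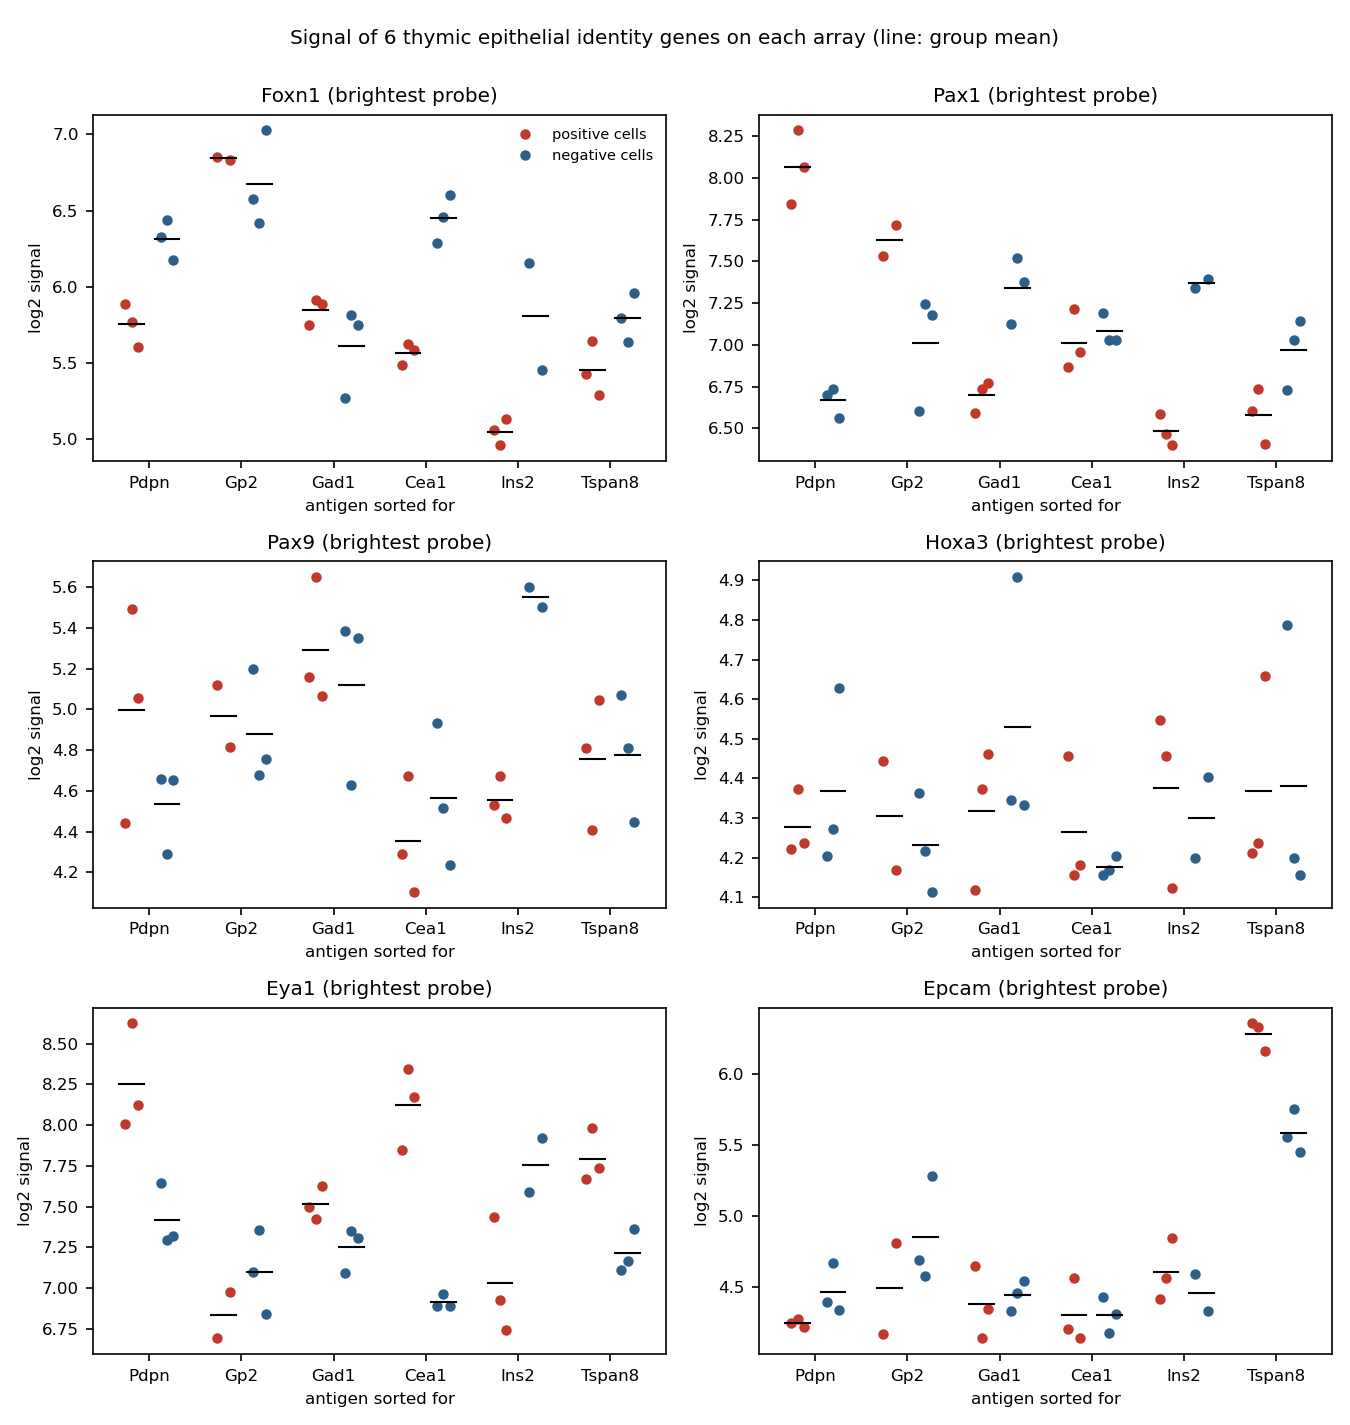
Log2 signal (y axis) of the brightest probe of each of the 6 genes on every array, by antigen sorted for (x axis), with positive cells in red left of negative cells in blue and a line at each group mean; the y axes differ between panels. Foxn1 is lowest in Ins2-positive cells (mean 5.05), Epcam stands out only in the Tspan8 sort (means 6.28 and 5.59), and no Hoxa3 array exceeds 4.91.

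Pax1, a paired-box factor of the pouch endoderm, rose in Pdpn-positive and Gp2-positive cells and fell in Gad1-positive and Ins2-positive cells. Its brighter probe read 7.85, 8.29 and 8.07 in Pdpn-positive cells, against 6.70, 6.74 and 6.56 in Pdpn-negative cells. The groups were more than 1 unit apart, and the signal was 2.64-fold higher (95% interval 2.09 to 3.34; adjusted p = 2.21e-08, limma). The fainter probe rose 1.87-fold in the same sort (95% interval 1.31 to 2.67; adjusted p = 0.00519, limma). Markers of fibroblasts and pericytes were higher in the same cells. Where 15.3% of all probes rose, 7 of 9 such markers did, among them Pdgfra by 3.12 and Fbln1 by 3.04 log2 units. Their summed linear signal was 7491 to 11535 on Pdpn-positive arrays, against 1670 to 1890 on Pdpn-negative arrays, where Col3a1 and Pdgfra were detected on no array. Their part in the Pax1 result was not tested.

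In the Gp2 sort the probes of Pax1 rose to unequal extents. The brighter probe read 7.54 and 7.72 in positive cells, against 6.60, 7.25 and 7.18 in negative cells, which is 1.53-fold higher (95% interval 1.18 to 1.99; adjusted p = 0.00924, limma). The fainter probe read 8.13 and 7.62 in positive cells, against 5.79, 6.15 and 5.61 in negative cells, which is 4.08-fold higher (95% interval 2.74 to 6.08; adjusted p = 4.13e-07, limma). Positive and negative arrays did not overlap for either probe. The call on the brighter probe was lost under median scaling (0.05; adjusted p = 0.907), with array weights (0.52; 0.101), in a fit of the Gp2 sort alone (0.62; 0.106), without Gp2-negative replicate 1 (0.41; 0.0974) and without Gp2-positive replicate 2 (0.53; 0.100). The thymocyte markers described above were higher in the same arrays, by a median of 3.28. There 8 of 9 cortical thymic epithelial markers also rose, by a median over the list of 2.33, beside 16.7% of all probes. Their part in the Pax1 result was not tested.

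In the Gad1 sort Pax1 read 6.59, 6.73 and 6.77 in positive cells, against 7.13, 7.52 and 7.38 in negative cells on the brighter probe. No arrays overlapped, and the signal was 1.56-fold lower (95% interval 1.23 to 1.97; adjusted p = 0.00272, limma). Median scaling ended this call (-0.51; adjusted p = 0.106). On the fainter probe the signal was 2.03-fold lower (adjusted p = 0.00176, limma).

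In the Ins2 sort Pax1 read 6.59, 6.46 and 6.40 in positive cells, against 7.34 and 7.40 in negative cells. This separated the groups by more than their spread, with a 1.85-fold lower signal (95% interval 1.42 to 2.40; adjusted p = 0.000298, limma). The fainter probe did not pass the test there (-0.33, SE 0.283; adjusted p = 0.449, limma). The brighter probe kept its call without each of the 5 Ins2 arrays in turn (-0.94 to -0.84). In log2 of the authors' deposited normalized values it read 7.30, 7.26 and 7.19 in positive cells, against 7.77, 7.68 and 7.79 in negative cells (-0.50; adjusted p = 0.000147, limma).

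Cea1-positive cells read 6.87, 7.21 and 6.96, against 7.19, 7.03 and 7.03 in Cea1-negative cells, which overlapped (-0.07; 95% interval -0.41 to 0.27). Tspan8-positive cells read 6.60, 6.74 and 6.40, against 6.73, 7.03 and 7.15 in Tspan8-negative cells (-0.39, SE 0.167; adjusted p = 0.0715, limma). Here 1 positive array overlapped the negative ones, and the test was passed on the authors' deposited values (-0.29; adjusted p = 0.0201), after normalization within each sort (-0.42; 0.0419), with array weights (-0.37; 0.0222) and without Tspan8-negative replicate 1 (-0.51; 0.0335).

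Group means of Pax1 ran from 8.07 ± 0.22 in Pdpn-positive cells (SD, n = 3) down to 6.48 ± 0.10 in Ins2-positive cells (SD, n = 3). Pdpn-positive arrays lay above those of Gp2-positive cells (7.63 ± 0.13, n = 2), which lay above those of Ins2-negative cells (7.37 ± 0.04, n = 2). Each further neighbour in the order overlapped. On the fainter probe Gp2-positive cells came first (7.88 ± 0.36) and Pdpn-positive cells next (7.03 ± 0.26), with no overlap between them, and Gad1-positive cells came last (4.81 ± 0.44). The group means of the probes correlated at 0.74 (Pearson over 12 groups, as a description).

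Pax9, the paralog of Pax1 that acts in the same pouch, was dim and changed only in the Ins2 sort among the 6 tested. Its probe was detected on 25 of 34 arrays. It read 4.53, 4.67 and 4.46 in Ins2-positive cells, of which 1 of 3 arrays was above background, against 5.60 and 5.50 in Ins2-negative cells. The groups did not overlap, and the difference was -0.99 (SE 0.277; adjusted p = 0.00561, limma). With most positive arrays at background, its size is not well determined. Without Ins2-negative replicate 1 the adjusted p was 0.0538, with a difference of -0.95. In the authors' deposited normalized values, with all 3 negative arrays, Pax9 read 6.68, 6.69 and 6.66 in log2 units in positive cells, against 6.96, 6.84 and 6.90 in negative cells (-0.22; adjusted p = 0.0240, limma).

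Pdpn-positive cells read 4.44, 5.49 and 5.06 for Pax9, against 4.66, 4.29 and 4.65 in Pdpn-negative cells (0.46, SE 0.248; adjusted p = 0.172, limma). The lowest positive array lay among the negative ones, and without it (Pdpn-positive replicate 1) the difference was 0.74 with an adjusted p of 0.0286. Array weights gave a call too (0.60; adjusted p = 0.0203). In the Gp2, Gad1, Cea1 and Tspan8 sorts the groups overlapped, with differences of 0.09, 0.17, -0.21 and -0.02, each with an SE of 0.248 to 0.277. Group means ran from 5.55 ± 0.07 in Ins2-negative cells (SD, n = 2) to 4.36 ± 0.29 in Cea1-positive cells (SD, n = 3), and each neighbour in that order overlapped the next.

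Eya1, a phosphatase and transcriptional coactivator, rose in Cea1-positive, Pdpn-positive and Tspan8-positive cells and fell in Ins2-positive cells. In the Cea1 sort its brightest probe read 7.85, 8.35 and 8.17 in positive cells, against 6.89, 6.96 and 6.89 in negative cells. The groups lay nearly 1 unit apart at their closest, and the signal was 2.31-fold higher (95% interval 1.79 to 2.97; adjusted p = 2.76e-06, limma). The second probe read 6.82, 7.18 and 7.00 in positive cells, against 5.66, 5.80 and 5.58 in negative cells, a rise of 2.49-fold (adjusted p = 0.000207, limma). The third probe rose 1.74-fold (adjusted p = 0.0327, limma) with overlapping arrays. It lost this call without Cea1-positive replicate 1 (adjusted p = 0.119) or 2 (0.137), without Cea1-negative replicate 1 (0.0566) or 3 (0.199), under median scaling (0.0743), with normalization within each sort (0.0559), on the authors' deposited values (0.0507), with no detection filter (0.0559) and with the sort fitted alone (0.124). The dimmest of the 4 was not called (0.25, SE 0.212).

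Markers of tuft cells, chemosensory epithelial cells that also occur in the thymic medulla, moved with the Cea1 result. Of 8 such markers 7 rose, by a median over the list of 5.50, and Pou2f3 did not pass the test (0.32). Their summed linear signal was 16541 to 28492 on Cea1-positive arrays, against 250 to 299 on Cea1-negative arrays, where Trpm5 and Il25 were detected on no array. Their part in the Eya1 result was not tested. All 8 also rose in the Tspan8 sort (median 2.69), where Eya1 rose, and in the Gad1 sort (median 2.62), where Eya1 did not pass the test. Of the 8, 5 rose in the Ins2 sort (median 1.45), where Eya1 fell, and in the Pdpn sort 7 of 8 fell (median -1.22), where Eya1 rose. In the Gp2 sort 5 of 8 fell (median -1.05), and Eya1 did not pass the test. Endothelial markers were higher in Cea1-positive cells too, 4 of 6 with a median over the list of 1.30. Their summed linear signal was 265.2 to 602.2 on Cea1-positive arrays, against 100.6 to 114.9 on Cea1-negative arrays, and their part was not tested. Beside all these counts, 10.7% of all probes rose in the Cea1 sort, and over the 6 sorts 10.7% to 16.7% rose and 12.6% to 18.4% fell.

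In the Pdpn sort Eya1 read 8.01, 8.63 and 8.12 in positive cells, against 7.64, 7.30 and 7.32 in negative cells. The signal was 1.78-fold higher with no overlap (95% interval 1.38 to 2.29; adjusted p = 0.000352, limma). The second probe did not show this (-0.11, SE 0.261; adjusted p = 0.842, limma), nor was the third called (0.31, SE 0.278). The Pdpn rise therefore rests on 1 of 4 probes. The fibroblast and pericyte markers given for Pax1 were higher in the same cells, and their part was not tested here either.

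In the Tspan8 sort Eya1 read 7.67, 7.98 and 7.73 in positive cells, against 7.11, 7.17 and 7.36 in negative cells. The groups did not overlap, and the signal was 1.50-fold higher (95% interval 1.16 to 1.93; adjusted p = 0.00965, limma). Without Tspan8-positive replicate 2 the call was lost (0.49; adjusted p = 0.0646). The tuft cell markers rose in the same cells, and their part was not tested. The second probe moved by the same amount (0.58, SE 0.261) without passing the test (adjusted p = 0.0833, limma), which it did with array weights (0.59; 0.0127) and in a fit of the Tspan8 sort alone (0.58; 0.0149).

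In the Ins2 sort Eya1 read 7.43, 6.93 and 6.74 in positive cells, against 7.59 and 7.92 in negative cells. The groups did not overlap, and the signal was 1.65-fold lower (95% interval 1.24 to 2.19; adjusted p = 0.00548, limma). The call was lost without Ins2-negative replicate 3 (-0.56; adjusted p = 0.126) and in a fit of the Ins2 sort alone (adjusted p = 0.0740). In the authors' deposited normalized values, with all 3 negative arrays, it read 7.80, 7.50 and 7.38 in log2 units in positive cells, against 7.92, 7.91 and 8.14 in negative cells (-0.43; adjusted p = 0.00502, limma). The second probe gave -0.63 (SE 0.292; adjusted p = 0.114, limma), which became a call under median scaling (-1.07; 0.00457), and the third -0.46 (SE 0.311; adjusted p = 0.310, limma).

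Gad1-positive cells read 7.50, 7.42 and 7.62 for Eya1, against 7.09, 7.35 and 7.31 in Gad1-negative cells (0.26, SE 0.180; adjusted p = 0.298, limma). Gp2-positive cells read 6.69 and 6.97, against 7.10, 7.36 and 6.84 in Gp2-negative cells (-0.27, SE 0.201; adjusted p = 0.349, limma). These groups overlapped in the Gp2 sort and not in the Gad1 sort. Under median scaling the Gp2 difference was -0.83 and was called (adjusted p = 0.0138).

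Eya1 was highest in Pdpn-positive cells (8.25 ± 0.33, SD, n = 3), followed by Cea1-positive cells (8.12 ± 0.25) and Tspan8-positive cells (7.79 ± 0.17), and lowest in Gp2-positive cells (6.83 ± 0.20, SD, n = 2). No neighbours in the order were separated by more than their ranges. The group means of the brightest probe correlated at 0.74 with those of the second and 0.83 with those of the third, but at -0.35 with those of the dimmest, which was above background on 14 of 34 arrays (Pearson over 12 groups, as a description).

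**Figure D3:**
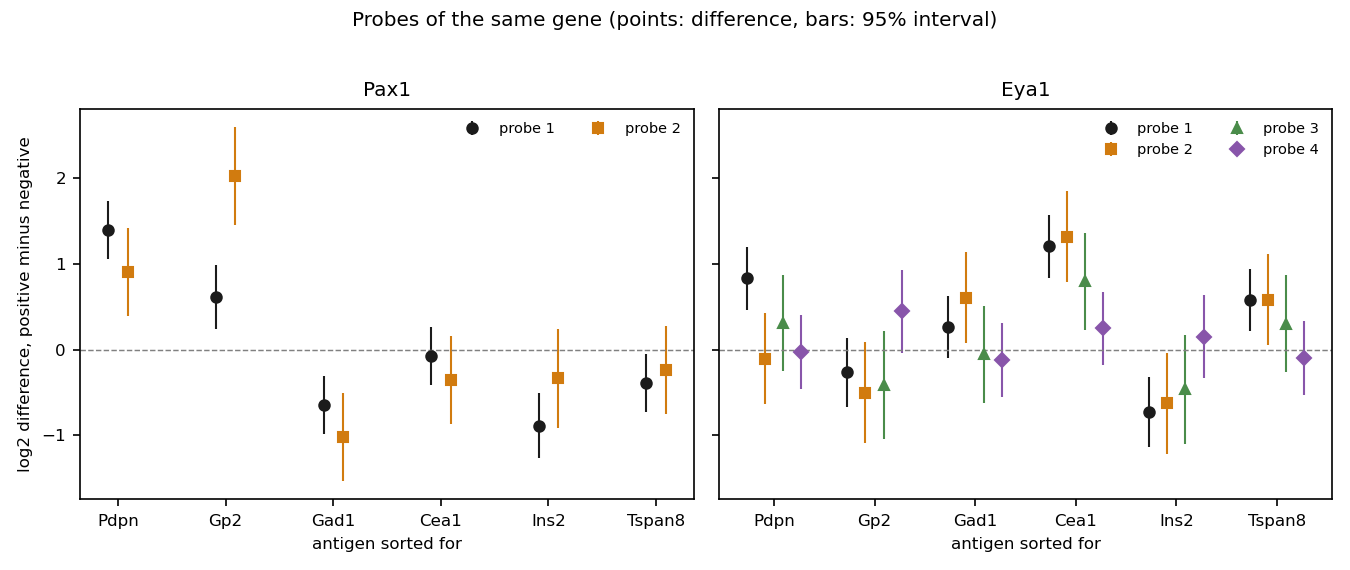
Positive minus negative log2 difference (y axis) in the 6 sorts (x axis) for each probe of Pax1 (left, 2 probes) and Eya1 (right, 4 probes), with 95% intervals. Probe 1 is the brightest. In the Gp2 sort the Pax1 probes read 0.62 and 2.03, and in the Pdpn sort Eya1 probe 1 reads 0.83 while probe 2 reads -0.11.

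Hoxa3, the homeobox factor needed for the pouch to form a thymus in mice, had too little signal to compare. Its 3 probes gave 102 readings, of which 4 (3.92%) had a detection p under 0.05. Those 4 came from Pdpn-negative replicate 3 (4.63), Gad1-negative replicate 2 (4.91), Tspan8-positive replicate 3 (4.66) and Tspan8-negative replicate 1 (4.79), all on 1 probe. All readings lay between 4.07 and 4.91, and no group had more than 1 array above background. Without the detection filter the differences of the 3 probes in the 6 sorts were -0.21 to 0.14 and none was called, with adjusted p-values of 0.288 or more (limma).

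The signal of the Epcam probe was also close to background in every sort but Tspan8. Little Epcam RNA and a poorly responding probe cannot be told apart with a single probe. Its single probe was detected on 14 of 34 arrays, whereas 13 of 14 measured genes of a list for epithelial adhesion and identity were detected on all 34. It read 6.36, 6.33 and 6.16 in Tspan8-positive cells, against 5.56, 5.75 and 5.45 in Tspan8-negative cells. All 6 arrays were above background and did not overlap between groups, and the signal was 1.62-fold higher (95% interval 1.24 to 2.11; adjusted p = 0.00330, limma). The call held without each of the 6 arrays in turn (0.63 to 0.78). The tuft cell markers rose in the same cells (8 of 8, median 2.69, beside 16.5% of all probes), with a summed linear signal of 14750 to 16353 in Tspan8-positive and 1472 to 1959 in Tspan8-negative cells, and their part in the Epcam result was not tested. In the Cea1 sort Epcam was not above background on any of the 6 arrays, so nothing is read from its signal there.

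Outside the Tspan8 sort Epcam arrays read 4.14 to 4.84 in positive cells and 4.17 to 5.28 in negative cells. The highest of these was Gp2-negative replicate 3. The Gp2 difference was -0.36 (SE 0.212; adjusted p = 0.208, limma), and without Gp2-positive replicate 2 it was -0.68 with an adjusted p of 0.0424. Pdpn-positive, Cea1-positive, Gad1-negative and Cea1-negative cells had no array above background. By group mean, Tspan8-positive cells (6.28 ± 0.11, SD, n = 3) lay above Tspan8-negative cells (5.59 ± 0.15), and these above Gp2-negative cells (4.85 ± 0.38). All later neighbours overlapped, down to 4.25 ± 0.03 in Pdpn-positive cells.

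**Figure D4:**
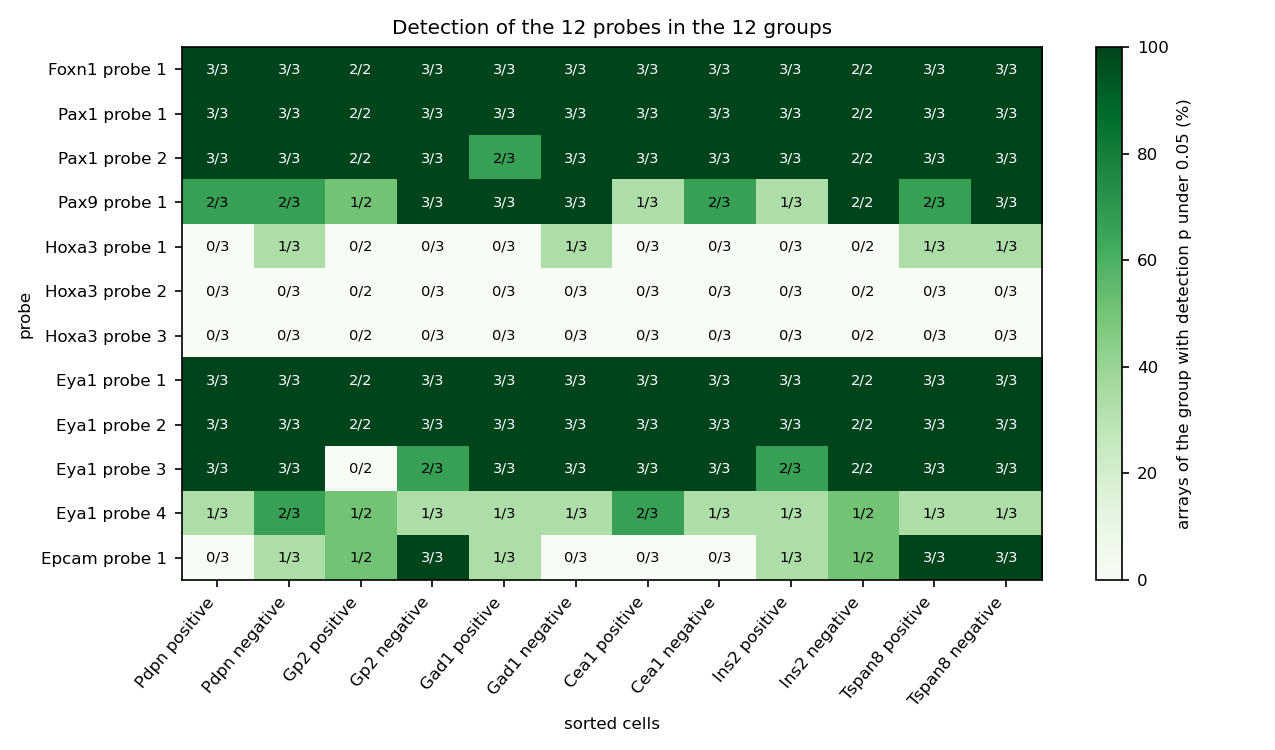
Number of arrays with a detection p under 0.05, of the arrays in the group, for the 12 probes (rows) in the 12 groups of sorted cells (columns); the colour gives the percent. Foxn1 and the brightest probes of Pax1 and Eya1 are detected in all groups, the Hoxa3 probes on 4 readings in all, and Epcam on every array of only Tspan8-positive, Tspan8-negative and Gp2-negative cells.

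Differences between the 6 sorts were tested directly, by an F test of limma on whether the positive-minus-negative difference is the same in all 6. All 5 genes passed on their brightest probe, where 52% of all kept probes did. The adjusted p was 1.92e-09 for Pax1 (F = 24.9), 1.14e-06 for Eya1 (F = 13.9), 0.00357 for Foxn1 (F = 5.10), 0.0213 for Epcam (F = 3.62) and 0.0254 for Pax9 (F = 3.48). Epcam lay mostly at background outside the Tspan8 sort, which limits its differences there, so its F says little about the other sorts. With the replicate number as a block the adjusted p was 0.0729 for Epcam and 0.0679 for Pax9, neither passing, and Pax9 did not pass on the authors' deposited values (0.0546) or with no detection filter (0.0508) either. Pax9 lost this call without Pdpn-negative replicate 2 (F = 2.95), Ins2-negative replicate 1 (2.36), Ins2-negative replicate 3 (2.67) or Ins2-positive replicate 3 (2.84). Epcam lost it without Tspan8-positive replicate 1 (F = 2.89), Tspan8-positive replicate 2 (2.96), Tspan8-negative replicate 1 (2.96) or Tspan8-negative replicate 3 (2.70).

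Setting 1 sort against the mean of the other 5 gave the Ins2 sort as the lower one for Pax1 (-1.07, SE 0.201; adjusted p = 0.000211), Pax9 (-1.09, SE 0.299; adjusted p = 0.00974) and Eya1 (-1.25, SE 0.217; adjusted p = 7.61e-05; limma). Of all kept probes, 14.9% differed in that contrast. Foxn1 did not pass the test there (-0.48, SE 0.241; adjusted p = 0.201), so its fall is not shown to be particular to the Ins2 sort. Nor did it pass in the Cea1 (-0.63, SE 0.221; adjusted p = 0.0816) or Pdpn sort (-0.25, SE 0.221; adjusted p = 0.481, limma), where it was also called lower. The Pdpn sort was higher than the mean of the others for Pax1 (1.67, SE 0.184; adjusted p = 3.99e-09) and Eya1 (0.62, SE 0.198; adjusted p = 0.0162), beside 27.9% of all probes. The Cea1 sort was higher for Eya1 (1.07, SE 0.198; adjusted p = 0.000380), beside 6.38% of all probes. The Tspan8 sort was higher for Epcam (0.80, SE 0.209; adjusted p = 0.00493), beside 19.7%. The Epcam probe was kept through 3 groups, both of the Tspan8 sort and Gp2-negative cells. It lay mostly at background elsewhere, which limits its differences there, so this contrast says little about the other sorts. In the Gad1 sort Foxn1 was higher (0.71) and Pax1 lower (-0.78) than in the mean of the other sorts, beside 33.6% of all probes. In the Gp2 sort Foxn1 (0.63) and Pax1 (0.73) were higher and Eya1 lower (-0.70), beside 30.7%. Contrasts against the other sorts were not rerun under the alternatives. Under median scaling the Gp2 differences that enter them were -0.39 for Foxn1, 0.05 for Pax1 and -0.83 for Eya1.

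Genes known to depend on Foxn1 moved in different directions from sort to sort. Of the 8 measured, 3 rose and 3 fell in the Pdpn sort (median 0.00), 6 rose and 1 fell in Gp2 (1.33), 1 rose and 0 fell in Gad1 (0.25), 1 rose and 3 fell in Cea1 (-0.11), 1 rose and 2 fell in Ins2 (-0.11), and 0 rose and 4 fell in Tspan8 (-0.80). Medians over all kept probes were -0.03 to 0.01. Of all probes, 10.7% (Cea1) to 16.7% (Gp2) rose and 12.6% (Cea1) to 18.4% (Tspan8) fell. With 8 genes a count of 1 or 2 is close to what those shares give, and nothing is read from it. The largest of these changes were in Gp2-positive cells, where Foxn1 itself was not called. Prss16, a thymus-specific protease of cortical epithelium, averaged 12.42 in Gp2-positive cells and 6.37 in Gp2-negative cells (adjusted p = 1.07e-17, limma). Cxcl12, a chemokine for T cell precursors, averaged 11.81 in Gp2-positive cells and 6.51 in Gp2-negative cells (adjusted p = 9.35e-20, limma). Psmb11, the cortical proteasome subunit, rose there by 3.62. Dll4, Ccl25, Cxcl12, Psmb11 and Prss16 are also in the list of cortical markers, so the Gp2 rises of both lists share genes. The thymocyte receptor and recombination genes Cd3e (4.29) and Rag1 (4.92) rose on the same arrays, and their part in these results was not tested. Cd40, a receptor for T cell help, fell by 2.43 in the Tspan8 sort (10.11 in positive and 12.54 in negative cells; adjusted p = 3.64e-18, limma), where Foxn1 did not pass the test.

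Aire and Cd80, which mark mature mTECs, were lower beside Foxn1 in some sorts and not in others. Aire fell by 1.32 in Pdpn-positive, 2.26 in Gp2-positive, 0.96 in Cea1-positive, 0.47 in Ins2-positive and 2.76 in Tspan8-positive cells, and gave -0.10 in the Gad1 sort, where it was not called. Cd80 was called lower in the Gp2 (-2.54), Tspan8 (-1.59), Pdpn (-1.45) and Cea1 sorts (-0.81), and was not called in Gad1 (0.10) or Ins2 (-0.16). The Gp2 and Tspan8 sorts thus had lower Aire without a called change of Foxn1. Proliferation genes fell as a whole list (6 of 6) in the Gad1, Cea1, Ins2 and Tspan8 sorts, with medians of -2.96, -2.14, -2.61 and -3.16, against rises of 3 of 6 in the Pdpn sort (median 0.50) and 4 of 6 in the Gp2 sort (median 1.32), where Pax1 rose. Their part in the changes of the identity genes was not tested. Over all probes the shares in the 6 sorts were 10.7% to 16.7% higher and 12.6% to 18.4% lower.

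**Figure D5:**
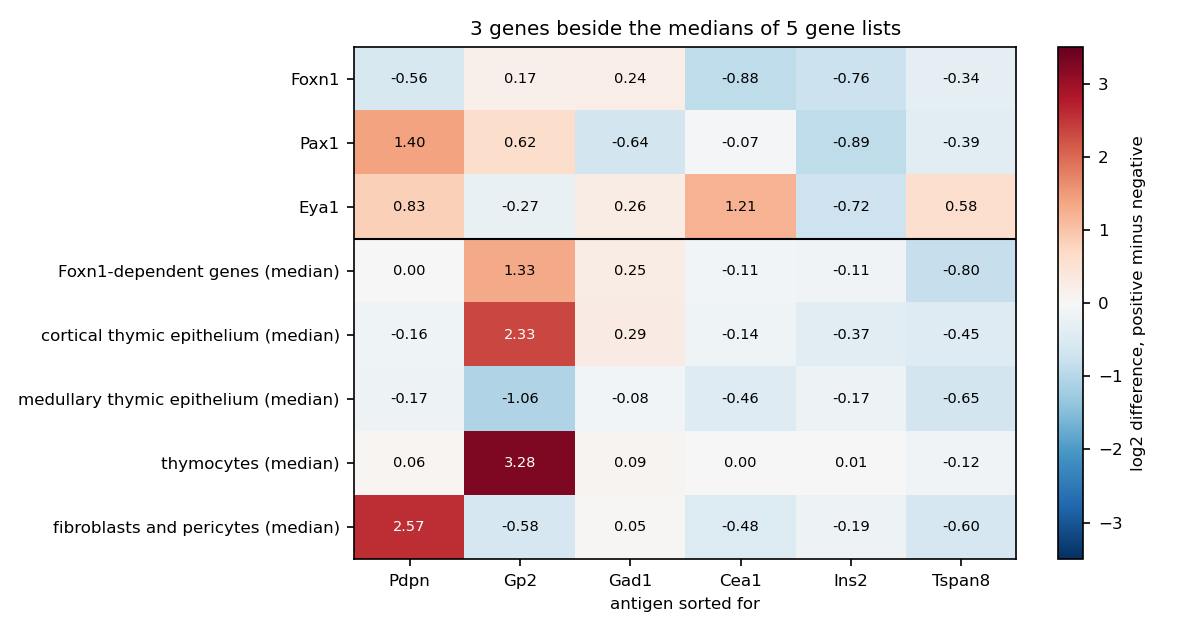
Positive minus negative log2 difference in the 6 sorts (columns) for the brightest probe of Foxn1, Pax1 and Eya1 (upper rows) and the median difference over the genes of 5 lists (lower rows); red is higher and blue lower in positive cells. Thymocyte (3.28) and cortical markers (2.33) are high in the Gp2 sort and fibroblast markers (2.57) in the Pdpn sort, while Foxn1 is most negative in Cea1 (-0.88). The rows of Foxn1-dependent and cortical genes share Dll4, Ccl25, Cxcl12, Psmb11 and Prss16.

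Among 8 measured genes of the pouch network, 3 rose and 0 fell in the Pdpn sort, while 0 rose and 3 fell in the Gp2, Cea1 and Ins2 sorts. In the Gad1 sort 1 rose and 3 fell, and in the Tspan8 sort 2 rose and 2 fell. The list's medians were 0.18 in Pdpn, -0.17 in Gp2, -0.31 in Gad1, -0.33 in Cea1, -0.25 in Ins2 and -0.19 in Tspan8. Of all probes, 10.7% (Cea1) to 16.7% (Gp2) rose and 12.6% (Cea1) to 18.4% (Tspan8) fell. The fibroblast markers in the Pdpn sort and the thymocyte and cortical markers in the Gp2 sort rose on the same arrays, and their part was not tested. Isl1, a LIM homeobox factor of the pharyngeal region, averaged 10.96 in Pdpn-positive and 9.89 in Pdpn-negative cells (adjusted p = 7.09e-07, limma). In the Ins2 sort it averaged 9.14 in positive and 10.59 in negative cells (adjusted p = 2.34e-08, limma). Isl1 was thus higher in the Pdpn sort and lower in the Ins2 sort, as the brightest probes of Pax1 and Eya1 were. It was also lower in the Cea1 (-0.67; adjusted p = 0.00110) and Tspan8 sorts (-0.98; adjusted p = 2.03e-06, limma), where Eya1 was higher, and in the Gad1 sort (-0.50; 0.0103). Ripply3, a corepressor of Tbx1, fell by 2.32 in the Gp2 sort, and Gata3 rose by 1.61 in the Tspan8 sort and by 1.32 in the Gad1 sort.

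A list of ligands, receptors and other pathway genes linked to Foxn1 and thymic epithelial growth had 6 of 10 genes higher and 0 lower in the Pdpn sort. Its median was 0.97, and 15.3% of all probes rose there. Foxn1 itself was called lower in that sort (-0.56; adjusted p = 0.0285, limma), and the activity of these pathways was not tested. The fibroblast and pericyte markers rose in the same cells (7 of 9, median 2.57), and their part was not tested. Fgfr2, the receptor for Fgf7 and Fgf10, averaged 11.16 in Pdpn-positive and 8.09 in Pdpn-negative cells (adjusted p = 1.47e-13, limma). Bmp4, a ligand that maintains thymic epithelium, rose by 2.66 in the same sort. Kremen1, a Wnt pathway receptor, rose by 2.72 in the Gp2 sort (adjusted p = 1.30e-11, limma). That list had 5 higher and 4 lower genes in Gp2, 0 and 2 in Gad1, 2 and 2 in Cea1, 2 and 2 in Ins2, and 3 and 1 in Tspan8. Over all probes the shares in the 6 sorts were 10.7% to 16.7% higher and 12.6% to 18.4% lower.

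Genes of epithelial adhesion and identity rose in 10 of 14 cases in the Tspan8 sort, with 0 lower and a median of 0.75, where 16.5% of all probes rose. Epcam rose in the same sort, as did the tuft cell markers (8 of 8, median 2.69), whose part was not tested. Elf3, an epithelial ETS factor, averaged 11.40 in Tspan8-positive and 9.31 in Tspan8-negative cells (adjusted p = 6.11e-13, limma). Krt5, a basal keratin, rose by 2.73 and Grhl2, an epithelial grainyhead factor, by 1.69 in the Pdpn sort. The list had 7 higher and 0 lower genes in Ins2, 6 and 1 in both Gad1 and Cea1, 6 and 3 in Pdpn, and 1 and 4 in Gp2. Beside these stand shares over all probes of 10.7% to 16.7% higher and 12.6% to 18.4% lower in the 6 sorts.

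Of 13 measured paralogs of the 6 genes, between 0 and 4 rose and 2 or 3 fell in each sort, with medians of -0.15 to 0.26. Over all probes 10.7% to 16.7% rose and 12.6% to 18.4% fell, and nothing is read from these counts. Hoxa2, a neighbour of Hoxa3 in the same cluster, was detected on 30 of 34 arrays. It averaged 4.83 in Gad1-positive and 6.95 in Gad1-negative cells (adjusted p = 5.82e-08, limma), and 4.41 in Ins2-positive and 6.53 in Ins2-negative cells (adjusted p = 6.20e-07, limma). Hoxa5 rose by 1.32 in the Tspan8 sort and Hoxd3 fell by 1.20 in the Gp2 sort. Hoxa5 was detected on 25 arrays and Hoxd3 on 31, so each of these relatives was above background far more often than Hoxa3.

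The genes whose group means followed each member most closely were found by Pearson correlation over the 12 groups, among 12957 or 12958 named genes detected on at least 50% of the arrays. Such correlations share the arrays and their normalization, and the highest of so many values are high by selection. For Foxn1 they were Rsbn1 (0.88), Pus10 (0.87) and Crlf3 (0.87). For Pax1 they were Rbms3 (0.96), F2r (0.95) and Tgfbr1 (0.94). For Pax9, Spi2-1 came first (0.87), before Pank1 (0.75) and Smarcad1 (0.75). For Eya1 they were Reep5 (0.90), Tmem141 (0.86) and Zdhhc1 (0.86), and for Epcam Cdk9 (0.92), Slc15a4 (0.92) and Atp6v0c-ps2 (0.90). Among the members themselves no pair of brightest probes correlated by more than 0.46 in size over the 12 group means. The most negative was Foxn1 with Eya1 (-0.46).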

How the data were processed

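RNA of sorted mouse mTECs was labelled with biotin as cRNA and hybridised to Illumina mouse bead arrays, per the labels. For 46089 probes the deposited unnormalized table gives a bead intensity and beside it a detection p-value, per the file headers. The deposited series table holds intensities normalized by the authors, by a method not given in the sources used here. Under the header of the Ins2-negative replicate 2 intensity stood values identical to the detection p-values of replicate 1 of Ins2-positive cells, so 34 of 35 arrays were fitted. The tables name probes differently and were joined by their values over the 34 arrays, and all 46089 probes matched. On the array without intensity, which the join did not use, the authors' values ranked against its detection p-values at 0.989 (Spearman).

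Signals were background-corrected and quantile-normalized by neqc (limma 3.58.1, R 4.3.3, offset 16). A probe needed detection on 2 or more arrays of any 1 group, which left 34083. The 12 group means were fitted by lmFit, then eBayes with a trend (22 residual degrees of freedom), and p-values were adjusted by the Benjamini-Hochberg method across the kept probes of each test. The kept probe with the highest mean is called a gene's brightest. The script was tested on simulated data. Symbols come from the platform annotation, updated with RefSeq names of GRCm38.p6. The number of arrays limits the precision.

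The members and lists were chosen with earlier results of these data known. Named genes are the members, up to 3 genes per list with the smallest adjusted p, the 3 most alike genes per member, and Aire, Cd80, Psmb11, Prss16, Rag1 and Cd3e; single marker genes named beside a result were chosen after their values were seen. Same-numbered positive and negative arrays of the Pdpn sort deviated together, with correlations above 0.1 in each of 3 pairs (0.155 to 0.231). The other sorts with 3 pairs did not pass 0.1 in every pair, but were positive throughout in Cea1 (0.0553 to 0.193) and Tspan8 (0.0737 to 0.0923). Gad1 gave -0.0207 to 0.0612. With 2 pairs each, Gp2 gave 0.107 and 0.224 and Ins2 0.0370 and 0.0836. Deviations of 2 arrays from their own mean mirror each other, which limits these values. The main fit had no term for the replicate number. Alternatives were other background, normalization and filter settings, the authors' values, array weights, each sort on its own, 1 probe per gene, a replicate block and leaving out single arrays.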

Additional observations from a re-analysis of the deposited data

Results flagged for a closer look

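The effect of being positive for the sorted antigen differed between the 6 sorts for each of the 5 genes with a kept probe, by the F test of limma on the brightest probe: 24.9 for Pax1 (adjusted p = 1.92e-09), 13.9 for Eya1 (1.14e-06), 5.10 for Foxn1 (0.00357), 3.62 for Epcam (0.0213) and 3.48 for Pax9 (0.0254). Over all kept probes 52.0% passed this test. With the replicate block Epcam (adjusted p = 0.0729) and Pax9 (0.0679) did not pass it. The Epcam probe lay mostly at background outside the Tspan8 sort, which limits its differences there.

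Against the mean difference of the other 5 sorts, the brightest probe of Pax1 was higher in the Pdpn sort by 1.67 (adjusted p = 3.99e-09) and in the Gp2 sort by 0.73 (0.00449), and it gave -0.78 in the Gad1 sort (0.00105) and -1.07 in the Ins2 sort (0.000211). The fainter Pax1 probe passed in the other 3 of these sorts but not in Ins2 (-0.60; 0.209). The brightest probe of Eya1 was higher in the Cea1 sort by 1.07 (0.000380) and in the Pdpn sort by 0.62 (0.0162), and it gave -0.70 in the Gp2 sort (0.0120) and -1.25 in the Ins2 sort (7.61e-05). The second Eya1 probe passed in the Cea1, Gp2 and Ins2 sorts. In the Pdpn sort no other Eya1 probe passed. Foxn1 was higher in the Gad1 sort by 0.71 (0.0113) and in the Gp2 sort by 0.63 (0.0447), in both of which its own difference was not called. These contrasts were not rerun under the alternatives, and median scaling turned the Gp2 difference of Foxn1 to -0.39. Pax9 gave -1.09 in the Ins2 sort (0.00974) and Epcam 0.80 in the Tspan8 sort (0.00493). As Epcam lay mostly at background in the other sorts, its contrast says little about them. No group had 4 or more arrays, so single arrays were not tested as outliers.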

How the results depend on the processing

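Values are log2 differences of the brightest probe, positive minus negative, with the adjusted p of limma in brackets, unless stated. Groups of 2 or 3 arrays limit every call, and probes near background carry the least information. No header names a slide or scan, so a block on these was not run. The direction and call of Pax1 in Pdpn (0.93 to 1.51), Eya1 in Cea1 (0.77 to 1.34) and Pdpn (0.61 to 0.95), Foxn1 in Cea1 (-0.97 to -0.34) and Epcam in Tspan8 (0.30 to 0.78) held under every alternative run. The sign turned only for differences that were not called. The cause of a change was not tested unless stated.

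Scaling each array to its median gave Foxn1 in Pdpn -0.62 (0.0566), Pax1 in Gp2 0.045 (0.907) and in Gad1 -0.51 (0.106), all no longer called, and Eya1 in Gp2 -0.83 (0.0138), now called. It turned the sign of Foxn1 in Gp2 (-0.39), Pax9 in Gp2 (-0.037) and Epcam in Cea1 (0.00027). The probes called higher became 3622 in Gp2, 2024 in Cea1 and 2036 in Ins2, where 8614 were lower. The share of calls that were higher was 30.1% against 50.3% in Gp2, 37.1% against 45.9% in Cea1 and 19.1% against 47.6% in Ins2, whose median over all probes moved to -0.12. Pax1 in Tspan8 became called with normalization within each sort (-0.42), the authors' values (-0.29) and array weights (-0.37), and Pax9 in Pdpn with array weights (0.60). Pax1 in Gp2 was not called with array weights (0.52) or with the sort fitted alone (0.62). Fitting sorts alone also ended the calls of Foxn1 (-0.76) and Eya1 (-0.72) in Ins2 and left 3709 probes higher in Gp2 and 2890 in Ins2. With the authors' values the F between sorts of Pax9 was 2.81 (0.0546), and with no detection filter 3.18 (0.0508). With 1 probe per named gene, which tests fewer features, 3294 were higher and 3455 lower in Pdpn, 3252 higher in Gp2, 3481 lower in Gad1, 2418 higher and 2827 lower in Cea1, 3209 lower in Ins2 and 3463 higher in Tspan8. With the replicate number as a block the F between sorts was 2.87 for Pax9 (0.0679) and 2.80 for Epcam (0.0729), and the block changed no other call of a brightest probe.

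Leaving out single arrays gave Foxn1 -0.63 to -0.49 in Pdpn (not called without negative 1 or 2, or positive 2 or 3) and -1.11 to -0.40 in Ins2 (not called without negative 1). Pax1 ranged from 0.41 to 0.73 in Gp2 (not called without negative 1 or positive 2), -0.17 to 0.0029 in Cea1 and -0.51 to -0.30 in Tspan8 (called without negative 1). Pax9 ranged from 0.21 to 0.74 in Pdpn (called without positive 1), -0.062 to 0.25 in Gp2, -0.075 to 0.30 in Gad1, -1.05 to -0.95 in Ins2 (not called without negative 1) and -0.18 to 0.15 in Tspan8. Eya1 ranged from -0.92 to -0.56 in Ins2 (not called without negative 3) and 0.49 to 0.66 in Tspan8 (not called without positive 2), and its second probe from -0.27 to 0.14 in Pdpn. Epcam ranged from -0.68 to -0.038 in Gp2 (called without positive 2), -0.20 to 0.053 in Gad1 and -0.13 to 0.080 in Cea1. The F between sorts ranged from 2.36 to 4.78 for Pax9 and from 2.70 to 4.85 for Epcam, and each was not called in 4 of these fits.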
